A study of Homo sapiens with 8 samples.

Results

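The mature miRNAs hsa-miR-10a-5p, hsa-miR-10a-3p, hsa-miR-10b-5p, hsa-miR-10b-3p, hsa-miR-196a-5p, hsa-miR-196b-5p and hsa-miR-615-3p are cut from hairpins that lie inside the HOX gene clusters. They were picked by name, not by a cut on level, as the 7 such miRNAs to be followed among 2588 miRNA names in the expression table. Earlier results of these data were known when they were chosen. In the table they filled 8 of 2813 entries, because miR-196a-5p is listed once for each of its hairpin copies, and those entries were summed. Small RNA was sequenced from 4 established human cancer cell lines, each grown untreated as the parental line in DMEM with 10% serum and harvested 48 h after seeding: ES-2 (ovarian cancer), MV-3 (melanoma), Huh-7 (hepatocellular carcinoma) and A-549 (lung adenocarcinoma). Each line had 2 libraries, which the study calls biological replicates. Each cancer type was therefore represented by 1 line, so that a difference between lines cannot be told apart from a difference between cancer types. The libraries held 1173902 to 2670030 miRNA reads.

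HOX genes encode homeodomain transcription factors that give cells their position along the body axis, and they stand in 4 clusters (HOXA to HOXD) in the order in which they act. The miRNAs embedded in the clusters sit beside particular HOX genes and are known to repress other HOX mRNAs, HOXD10 for miR-10b and HOXB8 for miR-196. miR-10b is best known for its link to invasion in cancer cells, and each miRNA acts by pairing its seed, bases 2 to 8 from the 5′ end, with target mRNAs.

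The positions below are from GENCODE on GRCh38, the build to which the reads were aligned. MIR196B, the HOXA hairpin, lies at chr7:27169480-27169563 on the minus strand, in an exon of at least 1 HOXA9 transcript, 1.04 kb from HOXA10. MIR10A lies in the HOXB cluster at chr17:48579838-48579947 on the minus strand, in an intron of HOXB3 and 1.49 kb upstream of HOXB4. MIR196A1, also in HOXB, lies at chr17:48632490-48632559 on the minus strand, in an intron of HOXB7 and 6.13 kb upstream of HOXB9. Its second copy MIR196A2 lies in HOXC at chr12:53991738-53991847 on the plus strand, in an intron of HOXC6, between HOXC10 (1.46 kb away) and HOXC9 (3.05 kb away). MIR615 lies at chr12:54033950-54034045 on the plus strand, in introns of HOXC5 and HOXC4. MIR10B, the HOXD hairpin, lies at chr2:176150303-176150412 on the plus strand, in an intron of HOXD3 and 1.138 kb upstream of HOXD4. Thus both miR-10 hairpins stood just upstream of a group-4 HOX gene, and each miR-196 hairpin stood upstream of or within a group-9 gene.

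**Figure D1:**
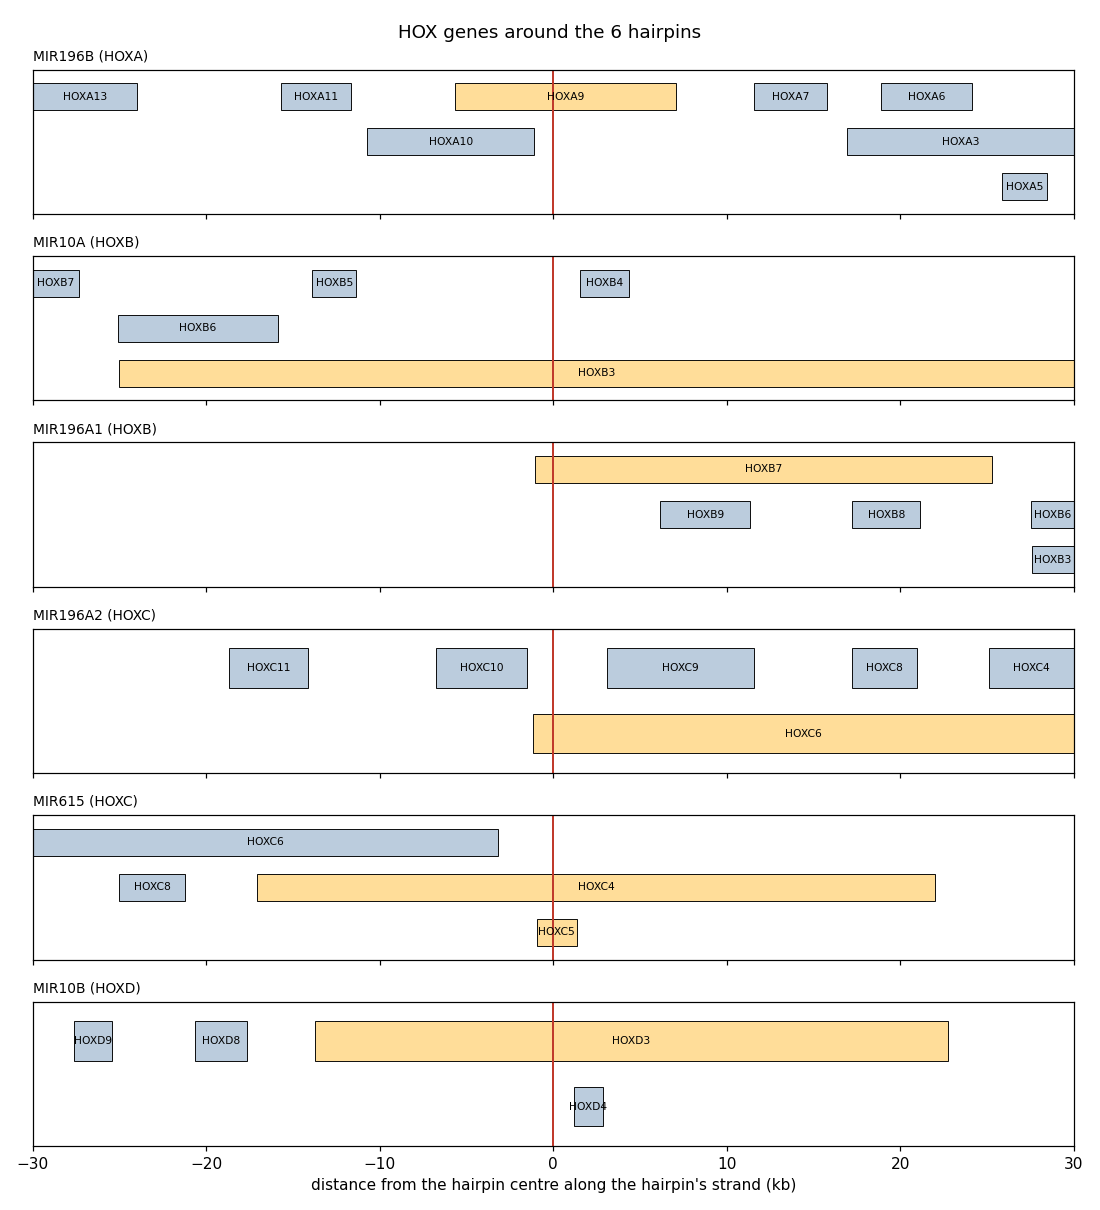
HOX genes within 30 kb on either side of each of the 6 hairpins, drawn as boxes from GENCODE gene spans along the strand of the hairpin. The horizontal axis is the distance from the hairpin centre in kb, the red line marks the hairpin, orange boxes are HOX genes whose span covers it, blue boxes are other HOX genes, and spans that run past the axis are cut. MIR10A and MIR10B stand 1.49 and 1.138 kb before HOXB4 and HOXD4.

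The mature sequences are shown because the levels of near-identical miRNAs can only be told apart at the bases where they differ. RefSeq sequences (GRCh38.p14) were used for 6 of the 7 members, that is all but miR-10b-5p, with the seed in capitals.
hsa-miR-10a-5p: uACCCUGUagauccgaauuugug
hsa-miR-10a-3p: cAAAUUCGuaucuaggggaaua
hsa-miR-10b-3p: aCAGAUUCgauucuaggggaau
hsa-miR-196a-5p: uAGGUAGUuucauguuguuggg
hsa-miR-196b-5p: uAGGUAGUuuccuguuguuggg
hsa-miR-615-3p: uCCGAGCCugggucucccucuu
miR-196a-5p and miR-196b-5p share a seed and differ by 1 base, A12C, counted from the 5′ end of miR-196a-5p. No other miRNA among the 2370 mature names of the RefSeq table had a seed equal to that of any of these 6. miR-10b-5p is not among those names, so this search could not compare its seed with that of miR-10a-5p. The 3p arms of mir-10a and mir-10b share a run of 11 bases near their 3′ ends and have different seeds. The miR-196 seed is also present in let-7a-5p, shifted by 1 base, at positions 3 to 9.

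The 2 hairpins that give the same miR-196a-5p are shown with that arm in capitals, to make visible that the mature sequence is identical while the rest is not.
MIR196A1: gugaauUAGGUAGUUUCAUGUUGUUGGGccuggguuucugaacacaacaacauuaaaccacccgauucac
MIR196A2: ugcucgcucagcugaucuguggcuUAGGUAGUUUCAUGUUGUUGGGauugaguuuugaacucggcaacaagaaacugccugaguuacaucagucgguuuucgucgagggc
The MIR10A hairpin is shown with both of its arms in capitals, since each arm was counted as a member.
MIR10A: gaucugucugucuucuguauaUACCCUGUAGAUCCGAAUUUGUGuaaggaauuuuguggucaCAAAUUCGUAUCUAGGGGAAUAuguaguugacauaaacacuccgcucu

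The levels below are normalised CPM, counts per 1000000 miRNA reads divided by a TMM factor (a scaling that sets the bulk of miRNAs level between libraries). The factors ran from 0.593 in A-549 to 1.70 in Huh-7, so levels were also computed without the factor, as library CPM. The liver miRNA miR-122-5p averaged 83721 normalised CPM in Huh-7 and 5.33 to 32.8 in the other lines. Among the other hepatocyte markers, miR-885-5p averaged 3181 in Huh-7, 2.11 in MV-3 and 0 in ES-2 and A-549. miR-192-5p averaged 5030 in Huh-7 but also 4540 in A-549, beside 76.1 in ES-2 and 77.8 in MV-3, so it did not set Huh-7 apart. The epithelial markers miR-200b-3p and miR-200c-3p averaged 1354 and 79.9 in A-549, below the 1853 and 120 of Huh-7, and miR-141-3p had 1 read in all in A-549. The melanocytic marker miR-211-5p had 0 reads in both MV-3 libraries and miR-204-5p had 4 reads in all, so the defining markers of that lineage were at or near 0 in MV-3. miR-204-5p was instead highest in Huh-7, with a mean of 34.7 (228 reads) against 1.29 in MV-3. Of 4 blood-cell miRNAs, miR-142-3p averaged 357 in ES-2 with 0 reads in the other lines, and the other 3 had 0 to 4 reads in any line.

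Differences between lines were tested with limma on log2(normalised CPM + 1) over the 8 libraries, with Benjamini-Hochberg adjustment over 528 miRNAs and a threshold of 0.01. All 7 members passed the filter on low values. Across the 4 lines 6 of the 7 differed, all but miR-10b-3p (adjusted p = 0.0373 in limma). This count was read against the background, since 68.2% of all miRNAs tested also differed. Variation between these lines was thus common among miRNAs, and the members are described below by which line was high or low.

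miR-10a-5p, the HOXB member of the miR-10 family, was abundant in ES-2 and nearly missing from Huh-7. Its libraries read 11859 and 12253 normalised CPM in ES-2, 5508 and 6040 in A-549, 2126 and 2020 in MV-3, and 5.63 and 7.51 in Huh-7. No 2 lines overlapped. In Huh-7 these values were 20 and 22 reads, against 17083 and 23860 in ES-2. It ranked 16th among miRNAs in ES-2, 28th in A-549, 47th in MV-3 and 377th in Huh-7. Huh-7 was lower than ES-2 by a log2 fold change of -10.65 (SE 0.13, limma adjusted p = 1.52e-08) and lower than MV-3 by -8.11 (SE 0.13, limma adjusted p = 5.46e-08). Among the others, A-549 was below ES-2 by -1.06 (SE 0.13, limma adjusted p = 0.000505) and MV-3 below A-549, the reverse contrast being 1.48 (SE 0.13, limma adjusted p = 0.000127). The first of these calls was lost without A-549 replicate 1 (adjusted p = 0.0103), and the second with scaling by library size only (0.52, adjusted p = 0.0183). The mean ratio of ES-2 to Huh-7 was 1834-fold on the normalised scale and 939-fold in library CPM.

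The near-absence in Huh-7 could be set beside miR-10b-5p, the near-identical paralog, which had 9490 and 7164 reads in the same libraries. The miR-10a-5p reads there came to 0.211% and 0.307% of the miR-10b-5p reads, which is the highest share of miR-10b-5p reads that can have been entered as miR-10a-5p in Huh-7. The converse, miR-10a-5p reads entered as miR-10b-5p, is not bounded by these counts and was not tested. miR-122-5p, with 540918 reads in Huh-7, had 101 reads in MV-3, 63 in ES-2 and 16 in A-549. miR-885-5p, with 20621 reads in Huh-7, had 7 in MV-3 and 0 in ES-2 and A-549. In the direction into Huh-7, miR-142-3p had 1199 reads in ES-2 and 0 in Huh-7, though miR-10a-5p had far more reads in ES-2 (40943). The part of reads carried between libraries in the 20 and 22 reads was not tested.

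The other arm, miR-10a-3p, was also highest in ES-2 and lowest in Huh-7, at far lower levels. It measured 84.0 and 95.5 normalised CPM in ES-2, 35.1 and 31.1 in A-549, 30.3 and 31.3 in MV-3, and had 0 reads in both Huh-7 libraries. The A-549 and MV-3 libraries overlapped, and their difference was 0.10 (95% interval -0.62 to 0.82). Against the level that 3 reads would give in a Huh-7 library (1.02 normalised CPM, the higher of its 2 libraries), miR-10a-3p was at least 87.6-fold higher in ES-2, 32.3-fold higher in A-549 and 30.1-fold higher in MV-3. The adjusted p values for these contrasts were 3.85e-06, 1.34e-05 and 1.68e-05 in limma. MV-3 and A-549 were both below ES-2, by -1.51 and -1.41 (SE 0.30 each, limma adjusted p = 0.00809 and 0.00711), and both calls were lost with a pseudocount of 0.1 (adjusted p = 0.034 and 0.0301) and when either ES-2 library, or either library of the line compared, was left out (adjusted p = 0.0123 to 0.034). The MV-3 call was also lost with library size only (-1.08, adjusted p = 0.0318), and the A-549 call under RLE scaling (-1.31, adjusted p = 0.0101), without MV-3 replicate 2 (adjusted p = 0.0109) and, like the MV-3 call, with the replicate number as a block.

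miR-10b-5p, the HOXD member, was the most even of the abundant members. Its libraries read 2922 and 3057 normalised CPM in ES-2, 2672 and 2447 in Huh-7, 2404 and 2454 in MV-3, and 1078 and 1241 in A-549. The MV-3 and Huh-7 libraries overlapped, ES-2 lay just above both, and A-549 lay clear of the other 3 lines. A-549 was lower than ES-2 by -1.37, than Huh-7 by -1.144 and than MV-3 by -1.07 (SE 0.09 each, limma adjusted p = 2.83e-05, 4.75e-05 and 0.000103). The other 3 lines were not separated at the threshold in limma: MV-3 minus ES-2 was -0.30 (95% interval -0.51 to -0.09, limma adjusted p = 0.0365), Huh-7 minus ES-2 was -0.22 (-0.43 to -0.02, adjusted p = 0.0636) and Huh-7 minus MV-3 was 0.07 (-0.13 to 0.28, adjusted p = 0.496). DESeq2 called ES-2 above both, with MV-3 minus ES-2 at -0.33 (adjusted p = 0.00764) and Huh-7 minus ES-2 at -0.36 (adjusted p = 0.00192). Their order depended on the scaling. In library CPM Huh-7 was highest (4268), above MV-3 (2826) and ES-2 (2562), with a Huh-7 minus ES-2 difference of 0.74 (limma adjusted p = 0.000138) and a Huh-7 minus MV-3 difference of 0.59 (limma adjusted p = 0.000427). That change of scale shifted the median over all miRNAs by 0.88 in Huh-7 against ES-2 and by 0.52 in Huh-7 against MV-3. A-549 was lowest on both scales.

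miR-10b-3p, the minor arm, had low counts, and its values were lowest in A-549. It measured 22.2 and 37.5 normalised CPM in ES-2 (32 and 73 reads), 18.6 and 12.3 in Huh-7 (66 and 36 reads), 20.7 and 37.9 in MV-3 (28 and 69 reads) and only 4.31 and 9.81 in A-549 (7 and 12 reads). The ES-2 and MV-3 libraries overlapped, and both A-549 values lay below the others. No pair passed in limma on normalised CPM, the nearest being A-549 minus ES-2 at -1.98 (95% interval -3.29 to -0.67, limma adjusted p = 0.0214). With library size only A-549 passed against all 3 other lines, at -2.37 against ES-2, -2.76 against MV-3 and -2.40 against Huh-7 (limma adjusted p = 0.00792, 0.00431 and 0.00528), and all 7 members then differed across the 4 lines. The medians over all miRNAs shifted by -0.50, -0.88 and -1.33 in these pairs.

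**Figure D2:**
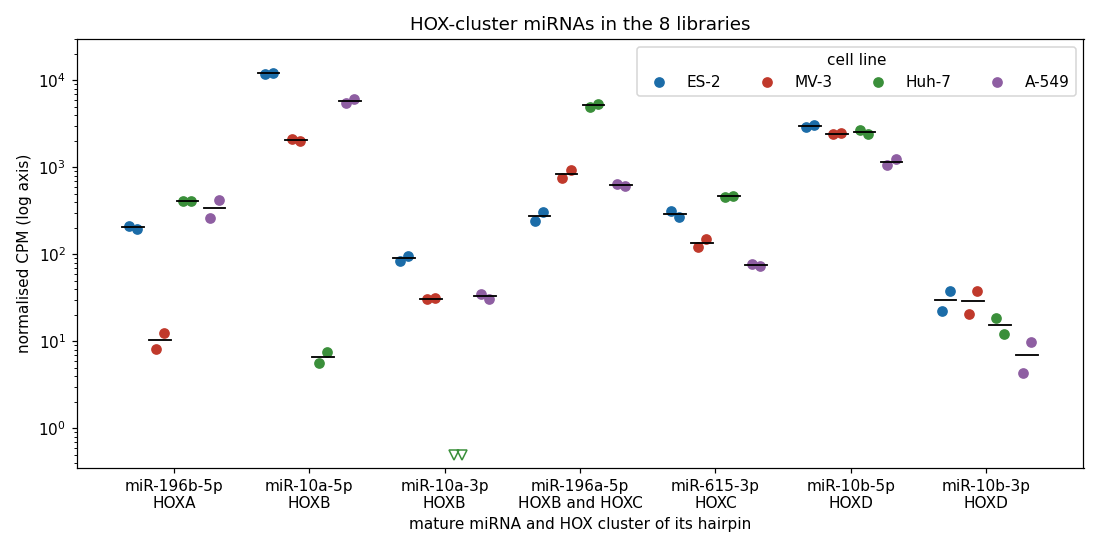
Normalised CPM (log axis) of the 7 members in each of the 8 libraries, grouped by the HOX cluster of the hairpin, with 1 point per library and a bar at the mean of each line. Open triangles, placed at the foot of the axis, mark 0 reads. miR-10a-5p spans 5.63 to 12253 with Huh-7 lowest, miR-196a-5p is highest in Huh-7 (5005 and 5331), miR-196b-5p is lowest in MV-3 (8.14 and 12.6), and miR-10b-5p spans 1078 to 3057.

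miR-196a-5p, which comes from both the HOXB and the HOXC hairpin, had Huh-7 as its highest line, the line where miR-10a-5p was lowest. It measured 5005 and 5331 normalised CPM in Huh-7, 755 and 925 in MV-3, 646 and 607 in A-549, and 242 and 310 in ES-2, with no overlap between lines. It ranked 19th in Huh-7, 62nd in MV-3, 75th in A-549 and 108th in ES-2. Huh-7 exceeded ES-2 by 4.23 and MV-3 by 2.63 (SE 0.15 each, limma adjusted p = 1.1e-06 and 1.24e-05), and A-549 minus Huh-7 was -3.04 (limma adjusted p = 5.58e-06). MV-3 and A-549 also exceeded ES-2, by 1.61 and 1.19 (limma adjusted p = 0.000279 and 0.000635). The call for A-549 against ES-2 was lost without either A-549 library (adjusted p = 0.0124 and 0.0101). A-549 minus MV-3, at -0.42 (95% interval -0.77 to -0.06), missed the threshold with an adjusted p of 0.0543, and passed with library size only (-1.37, adjusted p = 0.000411), where the median over all miRNAs shifted by -0.88. Huh-7 was highest and ES-2 lowest in library CPM too, where the span widened from 18.7-fold to 36.6-fold.

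The deposited table splits miR-196a-5p over its chromosome 12 and chromosome 17 entries. The chromosome 12 entry held 60.4% and 57.7% of the A-549 reads, 57.8% and 52.7% of those of ES-2, 56.7% and 56.8% of those of MV-3 and 55.6% and 55.5% of those of Huh-7. The split thus stayed within 52.7 to 60.4% while the level changed 18.7-fold. Both copies give the identical mature sequence printed above, and how such reads were divided is not given in the sources used here, so the entries do not measure the output of each hairpin. The arms that would tell the copies apart gave no help. miR-196a-3p, from MIR196A2, had 0 reads in all 8 libraries. miR-196a-1-3p, the 3p arm of MIR196A1, had no entry under that name in the deposited data.

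miR-196b-5p, the HOXA member, was low in MV-3, and whether the other 3 lines differed from each other depended on the test and the scaling. It measured 406 and 414 normalised CPM in Huh-7, 265 and 427 in A-549, 213 and 195 in ES-2, and 8.14 and 12.6 in MV-3. The MV-3 values were 11 and 23 reads. MV-3 was lower than Huh-7, A-549 and ES-2, the contrasts being 5.203 for Huh-7 minus MV-3, 4.92 for A-549 minus MV-3 and -4.20 for MV-3 minus ES-2 (SE 0.28 each, limma adjusted p = 9.93e-06, 2.85e-05 and 6.97e-05). The 2 A-549 libraries stood far apart and straddled the Huh-7 values. A-549 minus Huh-7 was -0.29 (95% interval -0.96 to 0.39) and changed sign, to 0.06, without A-549 replicate 1. Huh-7 minus ES-2 was 1.01 (0.33 to 1.68, limma adjusted p = 0.0202) and A-549 minus ES-2 was 0.72 (0.04 to 1.40, adjusted p = 0.0698), neither past the threshold in limma. Huh-7 minus ES-2 passed with edgeR (1.01, adjusted p = 0.00657), with DESeq2 (0.88, adjusted p = 0.00862) and with library size only (1.96, adjusted p = 0.00082). With library size only A-549 minus Huh-7 passed too (-1.75, adjusted p = 0.00139), where the median over all miRNAs shifted by -1.33. In MV-3 the miR-196b-5p reads were 1.08% and 1.36% of the miR-196a-5p reads, so at most that share of miR-196a-5p reads can have been entered as miR-196b-5p there. Entry of miR-196b-5p reads as miR-196a-5p is not bounded by these counts and was not tested. miR-196b-3p had 0 reads in all 8 libraries.

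miR-615-3p, from the intron of HOXC5, was highest in Huh-7 and lowest in A-549. It measured 462 and 464 normalised CPM in Huh-7, 317 and 268 in ES-2, 123 and 149 in MV-3, and 78.2 and 72.8 in A-549, with no overlap between lines. All 6 pairs passed, the largest being A-549 minus Huh-7 at -2.60 (SE 0.14, limma adjusted p = 9.37e-06). The smallest, Huh-7 minus ES-2 at 0.67 (SE 0.14, limma adjusted p = 0.00648), was lost under RLE scaling (0.54, adjusted p = 0.0189) and with DESeq2 (0.53, adjusted p = 0.0229), and without either library of ES-2, Huh-7 or A-549 (adjusted p = 0.0134 to 0.0405). A-549 minus MV-3 was -0.83 (SE 0.14, limma adjusted p = 0.00293), and this call was lost without MV-3 replicate 2 (-0.70, adjusted p = 0.0197) and without any 1 of the Huh-7 and A-549 libraries (adjusted p = 0.0117 to 0.0259). MV-3 minus ES-2 was -1.10 (SE 0.14, limma adjusted p = 0.00113), a call lost without ES-2 replicate 1 (-0.98, adjusted p = 0.0123) and with library size only (-0.67, adjusted p = 0.0158). The order of the lines was the same in library CPM, with a span of 17.03-fold in place of 6.13-fold. Its opposite arm, miR-615-5p, had 0 reads in ES-2, 2 in A-549, 3 in MV-3 and 6 in Huh-7, summed over the 2 libraries.

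Counted by pair of lines and read against all miRNAs tested, ES-2 exceeded MV-3 in 4 of the members and exceeded A-549 in 4. In MV-3 against ES-2 a further 1 was higher, where 11.6% of all miRNAs were higher and 14.2% lower. In A-549 against ES-2 also 1 was higher, where 23.7% of all miRNAs were higher and 17.6% lower. In Huh-7 against ES-2, 2 were higher and 2 lower (27.7% and 21.6%). In Huh-7 against MV-3, 3 were higher and 2 lower (26.9% and 20.1%), in A-549 against MV-3, 2 were higher and 2 lower (24.1% and 15.5%), and in A-549 against Huh-7, 2 were higher and 3 lower (28.6% and 23.7%). The median log2 fold change of the members was -1.10 in MV-3 against ES-2, -1.37 in A-549 against ES-2 and -1.09 in A-549 against Huh-7, beside medians of 0, 0.00 and -0.09 over all miRNAs. In the other 3 pairs it was -0.22 (Huh-7 against ES-2), 0.07 (Huh-7 against MV-3) and -0.42 (A-549 against MV-3), beside 0.34, 0.19 and 0.08. These pairs share libraries, and with 7 members a median rests on a single miRNA.

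**Figure D3:**
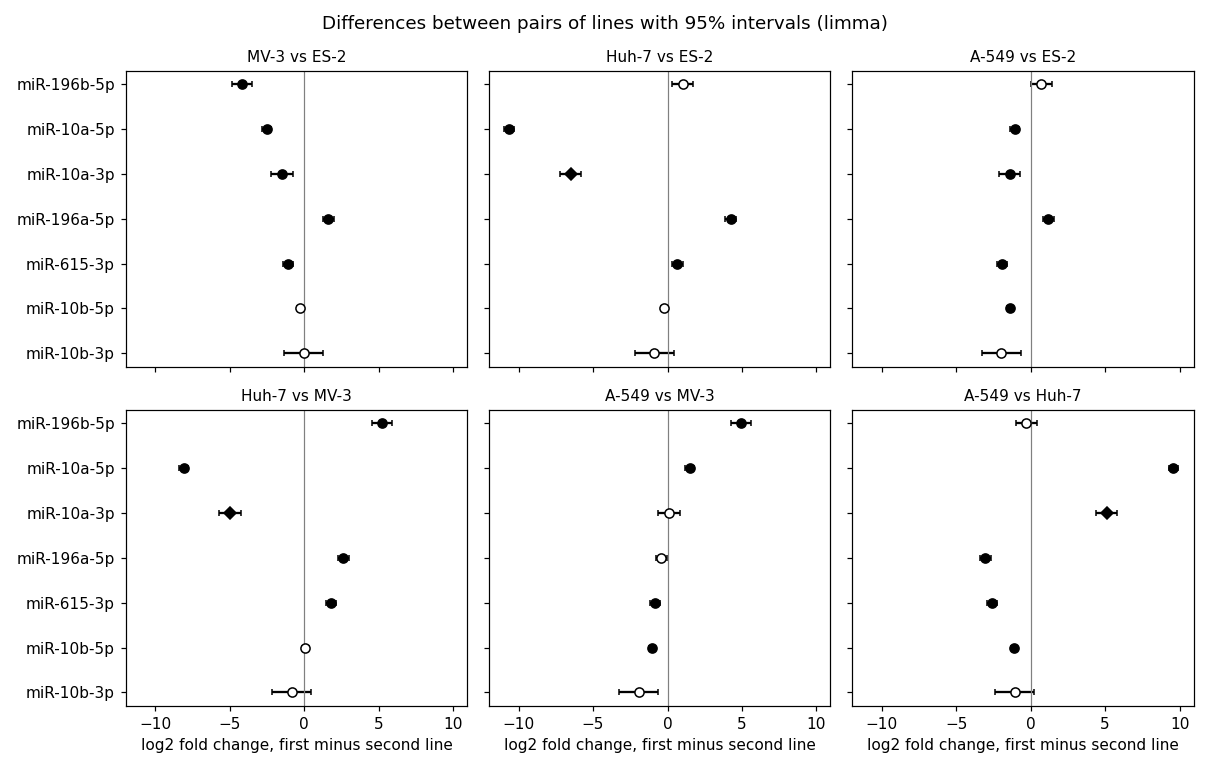
Log2 fold change (first minus second line) of the 7 members in the 6 pairs of lines, with limma 95% intervals. Filled points passed an adjusted p of 0.01, open points did not, and diamonds mark miR-10a-3p against the 0 reads of Huh-7, where the fitted value depends on the pseudocount and is no bound. miR-10a-5p lies farthest from 0 in the 3 pairs with Huh-7 (-10.65, -8.11 and 9.58), and miR-10b-3p passed in none.

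The share of each paralog within its family does not depend on the scaling between libraries. Of the miR-10a-5p and miR-10b-5p reads together, miR-10b-5p made up 99.7% ± 0.0678 (SD, n = 2) in Huh-7, 54.0% ± 1.25 in MV-3, 19.9% ± 0.139 in ES-2 and 16.7% ± 0.473 in A-549, and no lines overlapped. HOXB-derived miR-10a therefore outnumbered HOXD-derived miR-10b 4.06 and 4.01 to 1 in the ES-2 libraries and 5.11 and 4.87 to 1 in A-549, the pair was near even in MV-3, and Huh-7 reads were nearly all miR-10b. The lines differed in an exact permutation test of the F ratio over the 105 ways to pair 8 libraries (p = 0.00952, the smallest this design allows, and 0.0159 after adjustment over 5 shares).

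Within miR-196, the HOXA-derived miR-196b-5p made up 46.9% and 38.6% of reads in ES-2 (42.7% ± 5.85, SD, n = 2), 29.1% and 41.3% in A-549 (35.2% ± 8.66), 7.50% and 7.21% in Huh-7 (7.36% ± 0.203) and 1.07% and 1.35% in MV-3 (1.21% ± 0.198). ES-2 and A-549 overlapped, and Huh-7 and MV-3 lay below both. The exact permutation p was 0.0381 (0.0476 adjusted over the 5 shares). In Huh-7 the low share went with the highest mean miR-196b-5p level of any line, as miR-196a-5p was higher still, whereas in MV-3 the level of miR-196b-5p itself was low.

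The arm ratio of mir-10a could be measured in 3 lines. The 3p arm made up 1.41% and 1.52% of mir-10a reads in MV-3, 0.703% and 0.774% in ES-2, and 0.633% and 0.512% in A-549. MV-3 thus stood above the other 2, with a mean of 1.47% against 0.738% and 0.572%. In Huh-7 it was 0 of 20 and 0 of 22 reads, which allows up to 15.0% and 13.6%, so a share like that of the other lines was not detectable at this depth. The exact permutation p over 4 lines was 0.00952 (0.0159 adjusted over the 5 shares) but counts those zeros as values. Over the 3 other lines it was 0.0667, the smallest that 6 libraries allow. The 3p share of mir-10b was 0.591% to 1.19% by line and the lines were not separated (exact permutation p = 0.286).

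**Figure D4:**
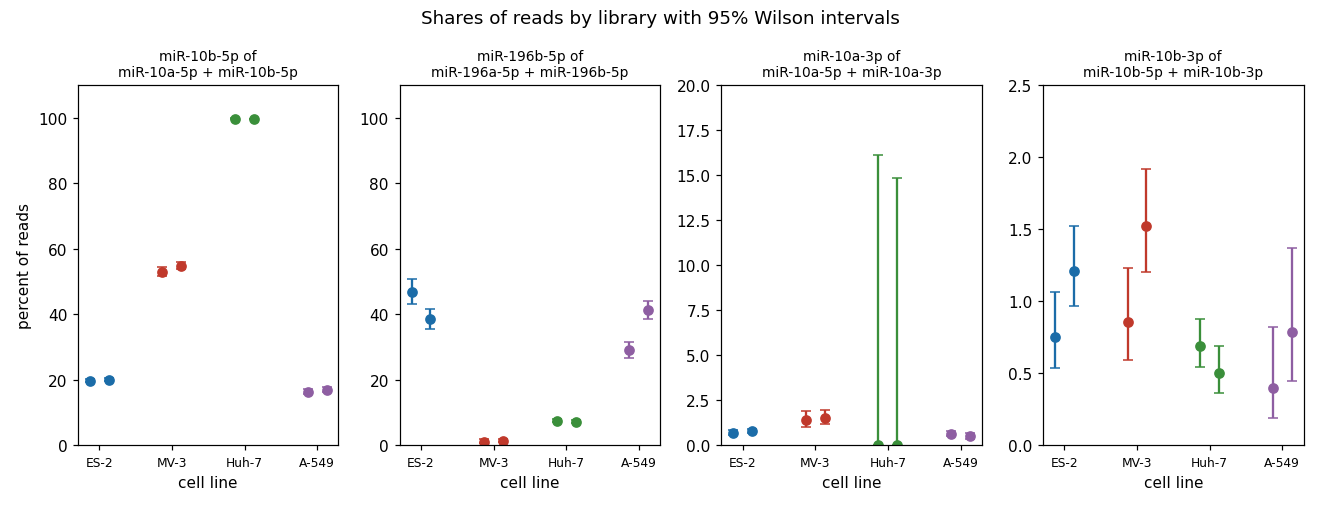
Percent of reads in each library with 95% Wilson intervals, 2 points per line: miR-10b-5p within miR-10-5p, miR-196b-5p within miR-196-5p, and the 3p arms within mir-10a and mir-10b (each panel has its own vertical scale). miR-10b-5p is 99.7% of the family in Huh-7 and 16.7% in A-549, and the Huh-7 interval for the mir-10a 3p share is wide because it rests on 20 and 22 reads.

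As a group the members held 1.37% ± 0.0138 (SD, n = 2) of all miRNA reads in ES-2, 1.44% ± 0.0552 in Huh-7, 0.646% ± 0.0232 in MV-3 and 0.482% ± 0.026 in A-549 (exact permutation p = 0.00952, 0.0159 adjusted over the 5 shares). On this scale, library reads without the TMM factor, ES-2 and Huh-7 reached similar totals with different members. The factor averaged 0.857 for ES-2 but 1.67 for Huh-7, so in normalised CPM the members' total was higher in ES-2. It averaged 0.601 for A-549 and 1.16 for MV-3, and in normalised CPM the total of A-549 lay above that of MV-3. The totals were tested as shares of reads only. In ES-2 miR-10a-5p made up 75.6% of the members' reads and miR-196a-5p 1.73%, while in Huh-7 miR-196a-5p made up 59.9%, miR-10b-5p 29.7% and miR-10a-5p 0.0762%. A-549 was also led by miR-10a-5p (72.0%) and miR-10b-5p (14.4%), with 7.84% miR-196a-5p, 4.27% miR-196b-5p (1.28% in ES-2) and 0.945% miR-615-3p (1.84% in ES-2). MV-3 was led by miR-10b-5p (43.8%) and miR-10a-5p (37.4%), with 15.1% miR-196a-5p.

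The relatives miR-99a-5p, miR-99b-5p and miR-100-5p come from outside the HOX clusters and carry a seed that differs from that of miR-10.
hsa-miR-99a-5p: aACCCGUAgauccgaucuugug
hsa-miR-99b-5p: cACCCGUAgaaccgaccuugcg
hsa-miR-100-5p: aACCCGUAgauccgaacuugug
miR-100-5p shares a run of 11 bases with miR-10a-5p and, like it, was lowest in Huh-7. Its mean was 223 normalised CPM in Huh-7, beside 14757 in A-549, 60156 in MV-3 and 129655 in ES-2, a Huh-7 minus ES-2 difference of -9.18 (limma adjusted p = 1.52e-08). miR-99a-5p was instead highest in Huh-7 (2019, against 277 in A-549, 423 in MV-3 and 910 in ES-2), and miR-99b-5p was lowest in ES-2 (2459, against 4735 to 7800 elsewhere). The sequence family therefore did not share 1 order of lines.

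Likeness of pattern was described by Pearson's r of log2(normalised CPM + 1) over the 8 libraries, which are 4 lines of 2 libraries each and so largely 4 levels. Over these, miR-10a-5p went with its own 3p arm (r = 0.99) and ran against miR-196a-5p (r = -0.98). As miR-196a-5p comes from both a HOXB and a HOXC hairpin, this r does not show how MIR196A1, in HOXB like MIR10A, varied. miR-10b-5p went with miR-10b-3p (r = 0.85) and miR-615-3p (r = 0.79). The r values of miR-10a-5p rest largely on Huh-7, where it averaged 6.57 normalised CPM against 2073 to 12056 in the other lines. Among 253 abundant miRNAs, those most like miR-10a-5p were miR-361-3p, miR-361-5p and let-7g-5p (r = 0.999, 0.998 and 0.997). Those most like miR-10b-5p were miR-17-5p, miR-19a-3p and miR-30e-3p (0.967, 0.946 and 0.946), and those most like miR-196a-5p were miR-500a-3p, miR-28-5p and miR-95-3p (0.963, 0.957 and 0.953). For miR-196b-5p they were miR-452-5p, miR-335-3p and miR-423-3p (0.970, 0.963 and 0.958), and for miR-615-3p they were miR-26a-5p, miR-186-5p and miR-99a-5p (0.976, 0.976 and 0.974).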

How the data were processed

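Small RNA libraries (NEXTflex kit) (2 per line) were sequenced by the study. Per its methods, adapters were trimmed with cutadapt 1.14, reads were aligned to GRCh38 with Bowtie2 2.3.2 and counted over miRBase entries with featureCounts 1.5.3. The treatment of multi-mapping reads is not given in the sources used here. The deposited values are a normalised signal per entry, CPM scaled by the authors with TMM in edgeR 3.18.1. Each library's values were whole multiples of its smallest value (100% of values within 0.001), which gave back the reads and the TMM factors. 3 reads corresponded to 0.845 to 2.45 normalised CPM. Replicates differed beyond counting noise (chi-square per degree of freedom 8.53 to 15.6), and intervals on shares (Wilson, 95%) cover counting error only.

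Entries of 1 name were summed. Levels were tested in limma 3.58.1 (R 4.3.3, 4 residual degrees of freedom) on log2(normalised CPM + 1), which understates changes of low miRNAs, after edgeR's filterByExpr, for all lines together and for 6 pairs, with Benjamini-Hochberg adjustment and a threshold of 0.01. edgeR 4.0.16 and DESeq2 1.42.0 on recovered reads were alternatives, and edgeR called 138 to 282 miRNAs per pair, limma 136 to 276. The limma step was tested on simulated data. With 2 libraries against 2, exact tests cannot pass 0.05, so shares were compared over 4 lines together. Hairpin positions are from GENCODE v44. Named were the members, the other arms of their hairpins, the miR-99 and miR-100 relatives and, for each member of at least 100 CPM in its highest line, the 3 most alike miRNAs. The members and lists were chosen with earlier results of these data known.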

Additional observations from a re-analysis of the deposited data

How the results depend on the processing

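With library size only, 27 of the 42 differences (each member in each pair) kept both their sign and their call. Of the rest, 7 gained a call, 3 lost it and 5 reversed. In 5 of the 6 pairs the number of members called stayed within 1.5 times under every other scaling, filter, pseudocount and tool, whichever members these were. The exception was MV-3 against ES-2, with 5 members called and 3 with library size only. Leaving out 1 library gave 3 to 5 there (3 without ES-2 replicate 1) and 2 to 5 for A-549 against ES-2 (5 with all libraries, 2 and 3 without A-549 replicate 1 and 2). Only differences that had not passed in the main limma fit reversed. miR-10b-5p in Huh-7 against MV-3 was -0.0236 with RLE and -0.0301 with DESeq2. When 1 library was left out, miR-10b-3p in MV-3 against ES-2 ran from -0.46 to 0.38. miR-196b-5p in A-549 against Huh-7 then ran from -0.63 to 0.058. With library size only, miR-10b-5p was 0.14 and miR-10b-3p 0.38 in MV-3 against ES-2. In Huh-7 against ES-2 they were 0.74 and 0.0261, and miR-10a-3p was -0.82 in A-549 against MV-3. Of these, miR-10b-5p in Huh-7 against ES-2 passed with opposite signs. It was -0.36 in DESeq2 (adjusted p = 0.00192) and 0.74 in limma with library size only (adjusted p = 0.000138). That scaling moved the median of all miRNAs by 0.40, 0.88, -0.50, 0.52, -0.88 and -1.33 in the 6 pairs, RLE and DESeq2 by at most 0.24, and the cause of each change was not tested. The line range of the mir-10a 3p share was 0.894 percentage points without Huh-7 (exact permutation p = 0.0667), an alternative chosen after seeing the data. Replicate numbers did not pair the libraries (correlations of deviations -0.05 to 0.23), and with a replicate block 3 calls were lost: miR-10a-3p in MV-3 and A-549 against ES-2 (adjusted p = 0.0197 and 0.0172) and miR-615-3p in Huh-7 against ES-2 (0.0134).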

Other observations

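Other miRNAs annotated in the clusters were hardly detected, as seen after the annotation was read. miR-7704, beside the HOXD genes, had 3 reads over all 8 libraries, and miR-3185, beside HOXB13, had 0.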
